A study of Saccharomyces cerevisiae with 9 samples.

Results

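Rsp5 is the yeast ubiquitin ligase of the Nedd4 family. The strains described here carried a deletion of RSP5 itself, measured only in heterozygous diploids with 1 intact copy, or of a gene whose protein works with it. Those partners are the paralogous adaptors BUL1 and BUL2, the deubiquitinase UBP2 and its partner RUP1, the membrane adaptor BSD2, and the arrestin-like adaptors LDB19, ECM21, ROG3 and ROD1. These 10 genes were chosen by name, with their abundance values on the arrays already known, and the values used in that choice were those of all 9 arrays. Levels and slopes of the members are therefore given as a description, with no test. All 10 had a tag with a value, through 16 tag probes, out of 5101 strains and 8765 named probes; 6 members had 2 tags and 4 had 1 (RSP5, RUP1, BSD2 and ECM21).

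Rsp5 attaches ubiquitin to membrane proteins, which are then taken up from the plasma membrane or diverted on the way to it and broken down in the vacuole. The ligase recognises few transporters directly. Adaptors bind it through short proline and tyrosine motifs and bring it to the cargo: Bul1 and Bul2 to the general amino acid permease and other carriers, the arrestin-like proteins Ldb19 (Art1), Ecm21 (Art2), Rod1 (Art4) and Rog3 (Art7) to amino acid, hexose and other transporters, and Bsd2 to metal transporters. Ubp2 removes ubiquitin chains that Rsp5 builds, and Rup1 holds Ubp2 and Rsp5 together. RSP5 is essential, since the enzyme also releases membrane-bound transcription factors needed for fatty acid desaturation.

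In the study, pools of knockout strains grew in paired cultures with and without sodium arsenite, and the short DNA tags of each strain were compared on 2-colour arrays, with 1 array for each pool and dose. The parent was BY4743, of the S288C background, and every pool carried ura3delta0, leu2delta and his3delta1. Its diploids were also lys2delta0/LYS2, met15delta0/MET15 and can1delta::LEU2-MFA1pr-HIS3/CAN1, besides the kanMX replacement that defines each strain. Of the 9 arrays, 6 held MATa haploid spores of that pool, selected on plates at 30 °C until confluent, with 0, 100, 200, 400, 800 or 1600 µM arsenite. A further 2 arrays held the heterozygous diploids, with 1 intact copy of the deleted gene, grown in YPD liquid for 10 generations with 0 or 450 µM. The last array held haploids that also carried a pfd1::TEF1pr-URA3 disruption of the prefoldin gene PFD1, with 5 µM arsenite on plates lacking uracil, set against a control on plates with uracil; the control cells carry the disruption too. Arginine permease CAN1, a known cargo of Ldb19, is replaced by the selection marker, so the selected haploids of every strain lack that cargo.

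Each value below is the log2 of a strain's share with arsenite over its share without, set to 0 at the median strain of that array. A value of 1 is thus a doubling, and a negative value a relative loss. The direction is likely and not settled. The strain lacking the arsenite exporter ARR3 read -5.51 at 100 µM, and the strain lacking the arsenite channel FPS1 read 4.19 at 800 µM. No arrays opposed each other (the lowest correlation over strains was 0.017), which bears on a shared sign and not on which sign it is. Were the ratio the other way round, losses and gains would trade places throughout. Between 2508 and 4904 strains had a value on an array, and the 1600 µM array stood apart, with a deposited median of 2.99 against -0.08 on the 0 µM array. The background range is the central 99% of strains on the haploid 0 µM array, from -1.39 to 1.37. The tag error of a strain value, taken from the scatter between the tags of a strain, was 0.28 with 2 tags and 0.40 with 1 tag at 800 µM. It covers neither the culture nor the array, since no condition was repeated.

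In the haploid pool the losses among members lay in BUL1 and, at high dose, UBP2. BUL1 dropped steeply between 100 and 400 µM, UBP2 moved between 400 and 800 µM, and BUL2, BSD2, LDB19, ECM21, ROD1 and ROG3 stayed within the background range from 0 to 800 µM. At 100 µM none of 9 measured members lay below that range, against 0.831% of all strains. BUL1 was the 1 of 9 below it at 200 µM, with 1.53% of all strains, and at 400 µM, with 5.75%. BUL1 and UBP2 made 2 of 9 at 800 µM, with 11.8% of all strains, and UBP2 and ROD1 2 of 4 at 1600 µM, with 3.99%. These counts describe 9 strains selected with their values known, and nothing is read from their excess over the background.

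**Figure D1:**
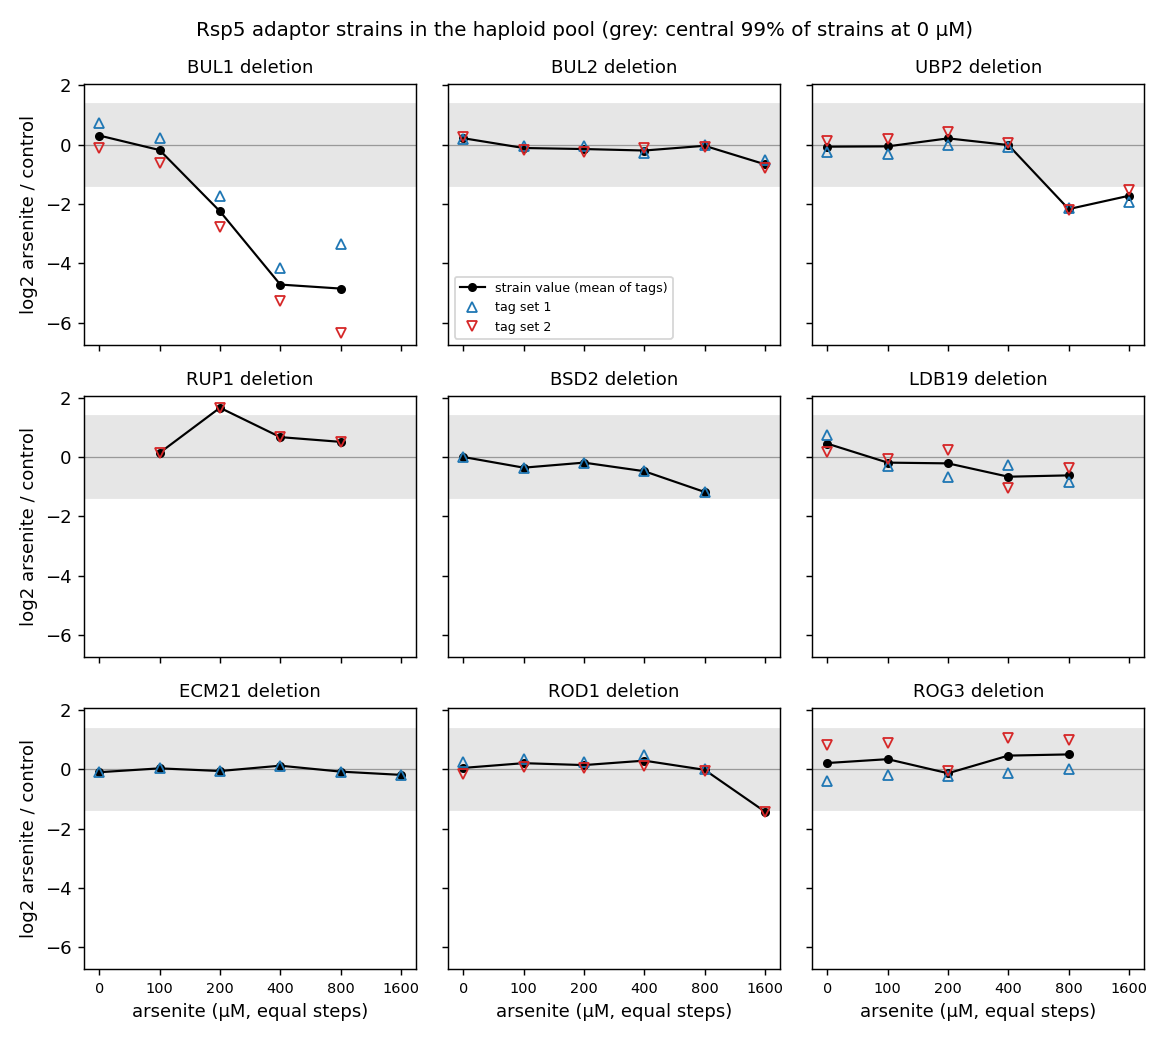
Log2 ratio of arsenite over control (vertical axis) against arsenite dose in µM, drawn as equal steps, for the 9 members measured in the haploid pool. Black points are strain values, open triangles are the tags, and the grey band is the background range from -1.39 to 1.37. BUL1 falls below it at 200 µM and UBP2 at 800 µM. RUP1 lies above it at 200 µM (1.66) and ROD1 just below it at 1600 µM (-1.43), each through 1 tag.

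BUL1 read 0.31 at 0 µM, -0.18 at 100 µM, -2.25 at 200 µM, -4.72 at 400 µM and -4.85 at 800 µM, with no value at 1600 µM. It was inside the range on the first 2 of these arrays and far below it on the other 3. Counted from the lowest, it was strain 1127 of 4089 at 100 µM and strain 29 of 4171 at 200 µM. Its place was 13 among 4122 strains at 400 µM and 20 among 3956 at 800 µM. The strain therefore went from unremarkable at the lowest dose to a place with only 0.671% of strains lower at the next. By step, it changed by -0.49, -2.07, -2.47 and -0.14, so that nearly all of the loss fell between 100 and 400 µM. Its tags started apart, at 0.74 and -0.12 on the 0 µM array, and relative to that start they moved alike up to 400 µM. The changes from 0 µM were -2.47 and -2.64 at 200 µM and -4.89 and -5.16 at 400 µM. At 800 µM they parted, with changes of -4.09 and -6.23. One tag thus read a smaller loss at 800 than at 400 µM and the other a larger one, and whether the strain fell further over that step is not resolved.

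BUL2, the paralogue that carries much of the same cargo, showed nothing of this. It read 0.22, -0.11, -0.15, -0.20 and -0.035 from 0 to 800 µM and -0.66 at 1600 µM. Its 2 tags lay within 0.19 of each other at 200 µM and within 0.07 at 800 µM. At 400 µM, where BUL1 was at its 13th lowest place, BUL2 was strain 1371 from the lowest of 4122.

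UBP2 followed another course. The deubiquitinase strain read -0.065, -0.055, 0.22 and -0.01 from 0 to 400 µM, then -2.17 at 800 µM and -1.72 at 1600 µM. The first 4 values lay near the median and the last 2 below the range. Both tags made the move, with changes from 0 µM of -1.87 and -2.34 at 800 µM and of -1.67 and -1.64 at 1600 µM. At 800 µM it was strain 244 from the lowest of 3956, and at 1600 µM strain 36 of 2508.

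RUP1, which links Ubp2 to Rsp5, did not share that loss. Its single tag read 0.14 at 100 µM, 1.66 at 200 µM, 0.67 at 400 µM and 0.51 at 800 µM, and had no value at 0 or 1600 µM. The 200 µM reading lay above the range, as did 0.839% of all strains there, and was strain 23 from the highest of 4171. The other readings lay inside. With 1 tag and no 0 µM value, a fixed offset of that tag cannot be separated from a change, and the 200 µM reading is matched by neither neighbouring dose.

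BSD2, through 1 tag, read 0.00, -0.36, -0.19, -0.48 and -1.18 from 0 to 800 µM. All lay inside the range, the lowest at the highest of these doses. With the range narrowed to the central 98% of strains, the 800 µM value of BSD2 fell below it. Then 3 of 9 members in place of 2 lay below at that dose. Of all strains, 13.8% read lower still than BSD2 on that array, so at least that share lay below the narrower range too. LDB19 read 0.45, -0.19, -0.22, -0.67 and -0.62. Its tags differed in where the shift came: the changes from 0 µM were -1.39 and 0.06 at 200 µM, and -1.59 and -0.55 at 800 µM. The 0 µM value itself was on the high side, at the 89.4th percentile, so the change from 0 µM is larger than the loss relative to the median strain.

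Of the remaining arrestin-like adaptors, ECM21 spanned 0.22 from lowest to highest value between 0 and 800 µM, ROD1 0.31 and ROG3 0.64. ECM21 read -0.10, 0.03, -0.06, 0.12 and -0.08 from 0 to 800 µM, and -0.19 at 1600 µM. ROD1 read 0.045, 0.21, 0.14, 0.29 and -0.02, then -1.43 at 1600 µM through the 1 tag that kept a value, with a tag error of 0.54 there, so that it lay at the edge of the range. ROG3 read 0.21, 0.34, -0.14, 0.46 and 0.50. The ROG3 tags stood apart on most arrays, at -0.41 and 0.83 without arsenite and at 0.00 and 1.00 at 800 µM. At 200 µM they lay close together, at -0.22 and -0.05. The offset between the tags was thus present on the array without arsenite as well.

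At 800 µM the members therefore ran from BUL1 at -4.85 through UBP2 at -2.17, BSD2 at -1.18, LDB19 at -0.62, ECM21 at -0.08, BUL2 at -0.035 and ROD1 at -0.02 to ROG3 at 0.50 and RUP1 at 0.51. The gap from BUL1 to UBP2 was 2.68, or 6.77 times the tag error of that gap. That error is pooled over all strains and understates the scatter of BUL1 here. The BUL1 tags read -3.35 and -6.35, and those of UBP2 -2.13 and -2.21. The gap from UBP2 to BSD2 was 0.99, or 2.04 times its error. All later neighbours lay within 1.31 errors of each other and were not separated by the tags.

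A slope per dose step was fitted with limma to the 5 arrays from 0 to 800 µM over all 3731 strains with every value, taking the doses as equal steps. At a Benjamini-Hochberg adjusted p under 0.05 it called 108 strains lower (2.89%) and 8 higher (0.214%). Of the 8 members with a slope, 1 (BUL1) was among those lower and 0 among those higher. Slopes were negative in 6 of 8 members and in 1779 of all 3731 strains. The members were chosen with these arrays known, so these counts are no test of them and nothing is read from them. BUL1 had the fourth steepest loss of all strains at -1.49 ± 0.17 (SE). UBP2 had -0.42 ± 0.20, LDB19 -0.26 ± 0.06, BSD2 -0.25 ± 0.07, BUL2 -0.06 ± 0.06, ROD1 -0.005 ± 0.06, ECM21 0.01 ± 0.05 and ROG3 0.07 ± 0.08. The steps of BUL1 and UBP2 given above were far from equal, so a single slope is a coarse description of both. Without the 800 µM array the slope of UBP2 was 0.04.

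Over the same 5 arrays, 3 of the 3730 other strains lay closest to BUL1 by root mean square difference. They were PBS2, the kinase kinase of the osmosensing HOG pathway, at 0.44, IRA2, an inhibitor of Ras, at 0.44, and SSK2, the kinase above PBS2, at 0.58. PBS2 read -0.82, -2.00, -5.19 and -4.74 from 100 to 800 µM, and IRA2 -0.93, -2.19, -4.34 and -4.40. The strains closest to UBP2 were ITC1, of a chromatin remodelling complex, at 0.24, APL5, a subunit of the AP-3 adaptor that carries cargo to the vacuole, at 0.25, and RXT2, of a histone deacetylase complex, at 0.26. All 3 stayed between -0.43 and 0.44 up to 400 µM and read between -2.37 and -1.79 at 800 µM. These likenesses describe 5 arrays that every strain shares, and say nothing of shared function.

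Deleting a gene can also disturb the gene beside it, so the strains of the adjacent genes in the RefSeq annotation were read too, a choice made after the members' values were known. Beside BUL1 lie RCE1, a protease of prenylated proteins, and DSK2, a ubiquitin receptor of the proteasome. RCE1 read -0.38 at 400 µM and -1.15 at 800 µM, and DSK2 -0.05 and 0.02. Neither came near the -4.72 and -4.85 of BUL1. Beside UBP2 lie LEO1, of the Paf1 complex, at 2.19 and CAT5, of coenzyme Q synthesis, at -0.91 at 800 µM, against -2.17 for UBP2. The effect of a deletion on a neighbour's expression was not tested.

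In heterozygous diploids, where the essential ligase can be measured, the order was different: RSP5 and BSD2 were lowest, and BUL1 and UBP2 lay at the median. RSP5, through 1 tag, read 0.35 at 0 µM and -1.51 at 450 µM, a difference of -1.86 with a tag error of 0.30. It was strain 23 from the lowest of 4684 by difference and 42 of 4904 at 450 µM. RSP5 had no value in any haploid array, nor in the pfd1 pool. BSD2, also through 1 tag, read 0.03 and -1.27, a difference of -1.30 and strain 55 from the lowest. At 450 µM RSP5 lay below the background range of the haploid 0 µM array, and BSD2 lay inside it. Differences of -1 or lower were found in these 2 of 10 members and in 1.96% of all strains.

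**Figure D2:**
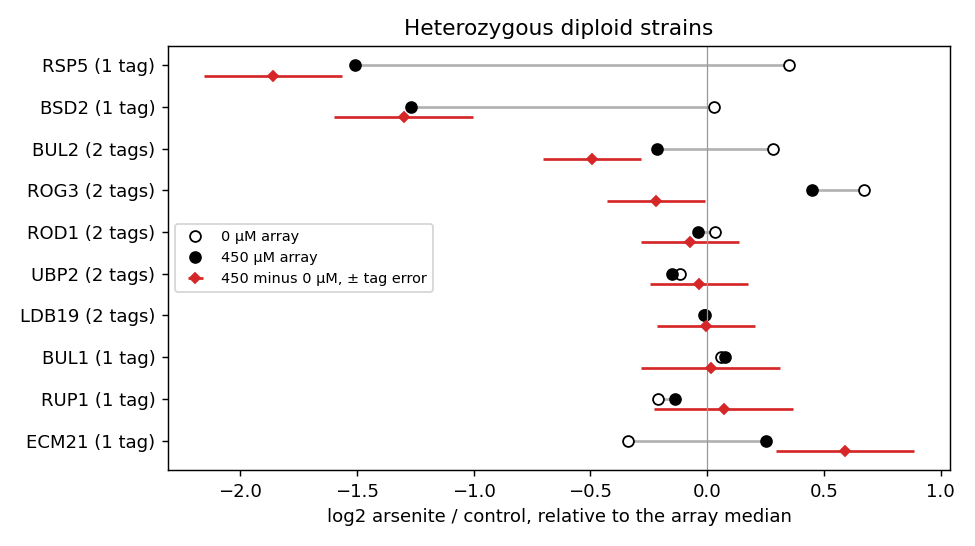
Heterozygous diploid strains of the 10 members, ordered by the difference between arrays. Open and filled circles give the log2 ratio on the 0 and the 450 µM array, and red diamonds the difference with the tag error as bars. RSP5 at -1.86 and BSD2 at -1.30 have the lowest differences, and the other 8 lie between -0.50 and 0.59.

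The other heterozygous differences were small. BUL2 read 0.28 at 0 µM and -0.22 at 450 µM, and both tags gave the same difference (-0.49 and -0.50). BUL1 read 0.06 and 0.08, a difference of 0.02, but the arrays share only 1 of its tags, which alone gave -0.29. UBP2 differed by -0.035, with tags at -0.06 and -0.01. LDB19 differed by -0.005, ROD1 by -0.075, RUP1 by 0.07 and ROG3 by -0.22. ECM21, with 1 tag, had the highest difference at 0.59, from -0.34 at 0 µM to 0.25 at 450 µM. In tag errors, the gap from BSD2 to BUL2 was 2.22, that from RSP5 to BSD2 1.33, and no later gap was above 1.24. These ratios describe members chosen with their values known, and they test nothing. The heterozygous and haploid arrays differ in medium, growth form and dose as well as in gene copies, so the values stand side by side and were not compared by a test.

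The genes beside the low heterozygous strains read as follows. Next to RSP5, DSE1, a daughter cell protein, differed by -0.25, and NSA2, of ribosome assembly, by -0.15. Next to BSD2, SNF5, of the SWI/SNF complex, differed by 0.60 and CTP1, the mitochondrial citrate carrier, by -0.87. Neighbours of the other members differed by between -0.78, for COQ5 beside BUL2, and 0.35, for PRO2 beside LDB19. An effect of a deletion on the gene beside it was not tested.

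In haploids lacking PFD1, LDB19 and BUL1 were high. LDB19 read 2.30, with tags at 2.50 and 2.09, and was strain 60 from the highest of 4612. BUL1 read 1.42, with tags at 1.77 and 1.07, and was strain 240 from the highest. These 2 of 9 members read 1 or higher, as did 8.63% of all strains, and 0 of 9 read -1 or lower, against 7.7% of all strains. The control and arsenite plates of this array also differ in uracil, and the ratio cannot tell the arsenite and uracil differences apart.

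**Figure D3:**
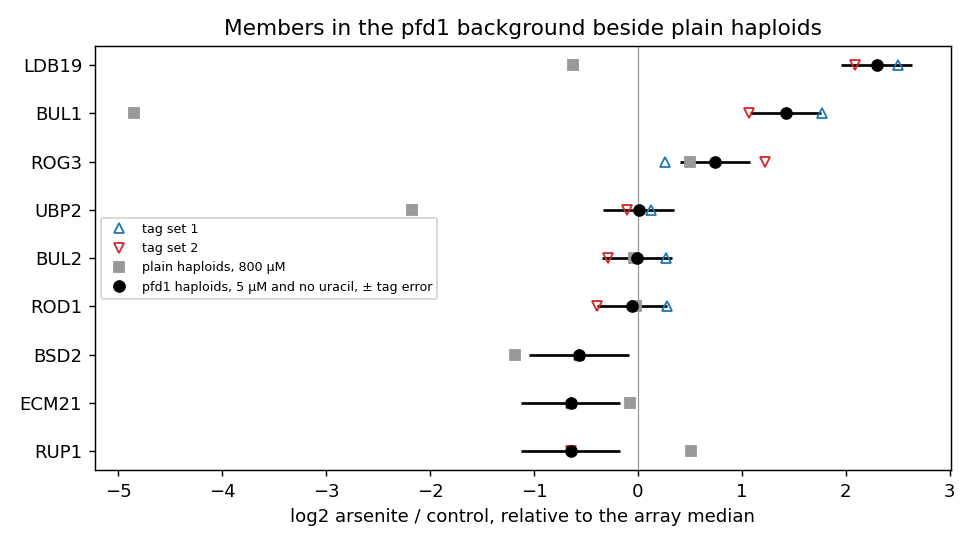
Log2 ratio of the 9 members measured in pfd1 haploids at 5 µM arsenite (black, bars are the tag error, triangles the tags), with the plain haploid value at 800 µM in grey. BUL1 lies at 1.42 here and at -4.85 in plain haploids, and LDB19 at 2.30 and -0.62.

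ROG3 read 0.74 in this pool, with tags at 0.26 and 1.22. UBP2 read 0.008, BUL2 -0.008 and ROD1 -0.06, all close to the median. BSD2 read -0.57, ECM21 -0.65 and RUP1 -0.65, each through 1 tag with an error of 0.48. From the lowest to the highest, no neighbours in this order were separated by more than 1.83 tag errors, the widest being the gap from BUL1 to LDB19. At the lowest plain haploid dose, 100 µM, BUL1 and LDB19 had read -0.18 and -0.19. Some neighbouring genes were also on the high side in the pfd1 pool. DSK2, beside BUL1, read 1.17, and PMT3, a protein mannosyltransferase gene beside LDB19, read 0.94. RCE1, on the other side of BUL1, read 0.31. Neighbours of the other members ran from -2.69 for CTK3, beside BUL2, to 1.09 for LEO1, beside UBP2. The part of the gene's position in these values was not tested.

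Around the members, 7 lists of genes with a known tie to Rsp5 held 75 genes, of which 54 had a slope. The lists were also chosen with earlier results of these data known, which limits what their adjusted p-values can show. Over all lists 2 fell and 0 rose by limma (10 and 6 at an unadjusted p under 0.05), and the median slope was -0.004, against 0.006 over all 3731 strains, of which 2.89% fell and 0.214% rose.

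**Figure D4:**
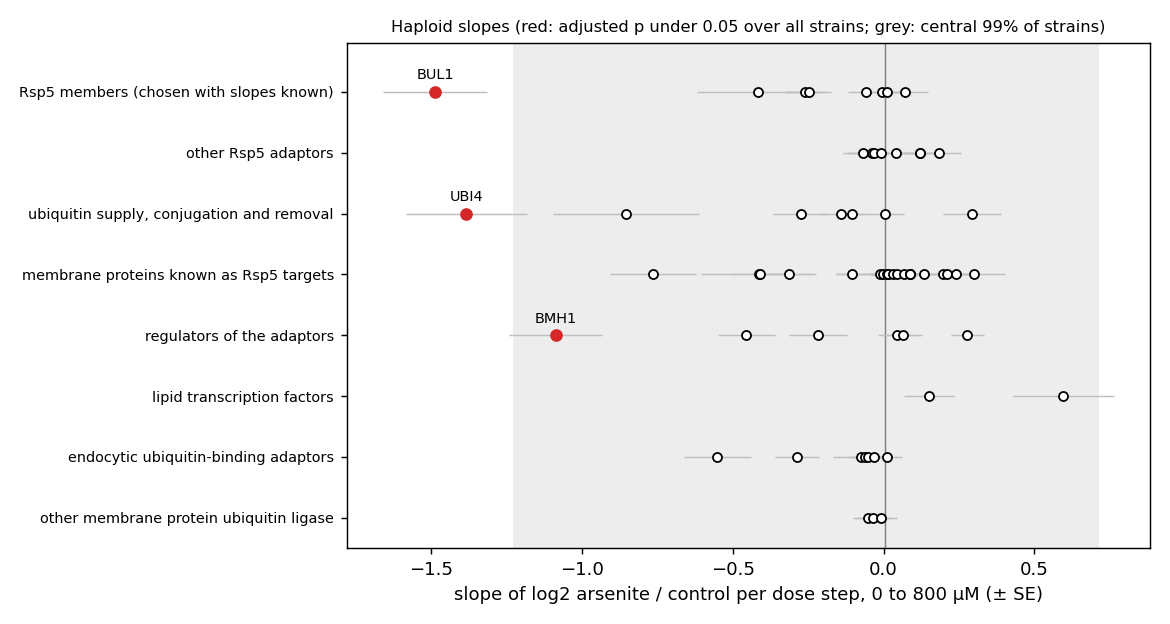
Slopes of the log2 ratio per dose step from 0 to 800 µM (points, bars are SE) for the members and the 7 lists, with called strains in red and the central 99% of all strains in grey. The red points are UBI4 at -1.38, BMH1 at -1.09 and, as a description only, the member BUL1 at -1.49. The lists too were chosen with earlier results of these data known.

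None of the 8 other Rsp5 adaptors with a slope passed limma's threshold in either direction (0 and 0 at an unadjusted p under 0.05), and their slopes ran from -0.07 to 0.18, with a median of 0.02. ART5 had 0.18 (adjusted p = 0.179), SSH4 0.12 (adjusted p = 0.311), ART10 0.12 (adjusted p = 0.186) and EAR1 -0.07 (adjusted p = 0.562). SSH4 and EAR1 bring Rsp5 to cargo at the endosome and vacuole. ALY1, ALY2, CSR2, the paralogue of ECM21, and TRE1, a partner of BSD2, were closer to 0, and TRE2 had no haploid value.

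Of the genes that supply, attach or remove ubiquitin, 1 of 7 fell and 0 rose (3 and 1 at an unadjusted p under 0.05), with a median slope of -0.14. UBI4, the stress-induced polyubiquitin gene, fell with a slope of -1.38 ± 0.20 (SE, limma adjusted p = 0.0395). It read -0.005, -1.65, -3.70, -5.48 and -5.01 from 0 to 800 µM, and was below the range a dose earlier than BUL1. On the 1600 µM array, which stood apart, UBI4 read -0.11 relative to a median that was itself shifted, so this need not mean a recovery. BRO1, which recruits the deubiquitinase Doa4 to endosomes, read -1.47 at 400 µM and -4.14 at 800 µM (slope -0.85, adjusted p = 0.0994). UBP3, another deubiquitinase, had a slope of -0.27 (adjusted p = 0.128), and UBP14, which takes apart free ubiquitin chains, 0.29 (adjusted p = 0.123). The call of UBI4 was lost in 9 of 14 alternatives, among them the fits without the 0, 100, 200 or 400 µM array.

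Among membrane proteins known as Rsp5 cargo, 0 of 21 fell and 0 rose by limma (3 and 3 at an unadjusted p under 0.05), with a median slope of 0.03. ITR1, the inositol transporter, had the most negative slope at -0.76 (adjusted p = 0.0555) and read -3.43 at 800 µM. The lysine permease LYP1 had -0.41 (adjusted p = 0.225), the copper transporter CTR1 -0.41 (adjusted p = 0.0702) and the amino acid permease TAT1 -0.31 (adjusted p = 0.0689). ITR1 passed in 4 of 12 alternatives, among them the fit without the 0 µM array, and CTR1 in 2 of 14, among them the fit without the 200 µM array.

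Of the regulators of the adaptors, 1 of 6 fell and 0 rose (2 and 1 at an unadjusted p under 0.05), with a median slope of -0.09. BMH1, a 14-3-3 protein that binds phosphorylated adaptors, fell with a slope of -1.09 ± 0.15 (SE, limma adjusted p = 0.0372) and read -2.84 at 400 µM and -4.02 at 800 µM. Its paralogue BMH2 read -0.44 and -1.63 (slope -0.46, adjusted p = 0.0638). NPR1, the kinase that holds Bul and arrestin-like adaptors inactive, read 1.30 at 800 µM (slope 0.28, adjusted p = 0.0613), and SNF1, the kinase that acts on Rod1, had a slope of -0.22 (adjusted p = 0.208). At 1600 µM BMH1 read -0.18 relative to the median of the 2508 strains with a value. The deposited median of that array was shifted, at 2.99, so this need not mean a recovery. The call of BMH1 was lost without the 100, 400 or 800 µM array.

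The remaining 3 lists held no call. Of the endocytic adaptors 0 of 7 fell or rose by limma (2 and 0 at an unadjusted p under 0.05), with END3 at -0.55 (adjusted p = 0.0626), YAP1801 at -0.29 (adjusted p = 0.0827), RVS161 at -0.08 (adjusted p = 0.657) and ENT1, an epsin, at -0.06 (adjusted p = 0.503). SLA2, which links the endocytic coat to actin, had no 0 µM value and read -1.75 at 400 µM and -1.95 at 800 µM. Of the transcription factors released through Rsp5 and their helpers, only UBX2 and SPT23 had slopes, of 0.60 (adjusted p = 0.0988) and 0.15 (adjusted p = 0.288), and 0 of 2 passed (0 and 1 at an unadjusted p under 0.05). The Tul1 ligase, which acts on membrane proteins of the Golgi and endosomes, was represented by TUL1 at -0.04 (adjusted p = 0.736), UBX3 at -0.05 (adjusted p = 0.553) and DSC3 at -0.01 (adjusted p = 0.934), and 0 of 3 passed (0 and 0 at an unadjusted p under 0.05).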

How the data were processed

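The abundance of knockout strains was measured on 9 arrays of 2 colours, with the control in Cy5 and the arsenite culture in Cy3 on each, per the labels, and no dye swap is labelled. The authors deposited 1 log ratio for each tag, taken here as log2 from its range; were it a natural log, all log2 values printed would grow in proportion. How the authors scanned, normalized and filtered is not given in the sources used. The sign was turned to arsenite over control, the tag probes of a strain were averaged, and each array was centred on its median strain. Of 22575 probes, 9727 had a value and 8765 of these name 1 gene, 0 several and 962 none; symbols follow the platform annotation and the R64 gene table. Slopes came from limma (version 3.58.1, R version 4.3.3) by lmFit with eBayes; p-values are two-sided and adjusted by Benjamini-Hochberg over all strains, and the fit was tested on simulated data. Each dose has 1 array, so dose order is the only replication; the number of arrays limits the precision. Tags were split into 2 sets by their place in the table, where the paired probes lie 10971 apart. The members and lists were chosen with earlier results of these data known. The genes named are all members; of each list, the called genes and those of largest absolute slope up to 4 in all, plus genes without a slope that lay outside the background range at 800 µM; and the 3 strains most like each member that has all 5 values and lies outside that range at 800 µM. Other genes named were chosen after their values were seen. A planned search for proline-tyrosine motifs in the member proteins was not run, as protein sequences were not used here. Alternatives changed the arrays, dose scale, normalization, prior, tags and background range.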

Additional observations from a re-analysis of the deposited data

Results flagged for a closer look

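For 3 members the pfd1 array read opposite in sign to all 4 plain haploid arrays from 100 to 800 µM. Only the pfd1 value had to exceed its tag error. At 100 µM the plain values lay within theirs, at -0.18 for BUL1 and -0.19 for LDB19 (error 0.27), and 0.14 for RUP1 (error 0.38). The share of all strains that meet this rule was not counted, so nothing is read from the number of members. The difference was not tested, and dose and uracil differ too. BUL1 read 1.42 in pfd1 haploids and between -4.85 and -0.18 in plain ones, LDB19 2.30 and between -0.67 and -0.19, and RUP1, through 1 tag, -0.65 and between 0.14 and 1.66.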

How the results depend on the processing

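No paired analysis was possible because each condition has 1 array. Counts of slope calls moved most, with the lower and higher counts over all strains at 108 and 8 in the reported fit. They were 0 and 0 with all 6 haploid arrays, with a trended and robust prior, or with the arsenite arrays set against 0 µM, 554 and 474 with dose in µM, 43 and 32 after quantile normalization, 69 and 3 with tag set 2, and 45 and 3 over strains with at least 2 tags. Scaling to the median absolute deviation gave 135 and 43. Leaving out each array in turn gave from 7 to 108 lower and from 0 to 8 higher. Members called lower numbered 1 in the reported fit, 3 with dose in µM (BUL1, UBP2 and BSD2), and 0 with all 6 arrays (where BUL1 has no value), quantile normalization, scaling to the median absolute deviation, the trended prior, the arsenite arrays against 0 µM, and from 0 to 1 leaving out each array. These counts describe members chosen with the arrays known and test nothing. The slope of BUL1 ran from -1.71 to -0.91 over the 10 alternatives that keep a slope per dose step. List genes called lower numbered 2 in the reported fit, 11 with dose in µM (and 6 higher), 4 with tag set 1, 0 with all 6 arrays, the trended prior or the arsenite arrays against 0 µM, and from 0 to 2 leaving out each array. At 1600 µM, members below the range numbered 1 with tag set 1 and 4 without centring, against 2 of the 4 measured in the reported setting. The deposited median of that array was 2.99, so with the sign turned and no centring the median strain itself lies below the range. The count without centring therefore says nothing of the members. The share of all strains below was not counted for these alternatives. The heterozygous difference of ROG3, -0.22, turned to 0.45 on the 450 µM array alone, where the 0 µM value of 0.67 is not subtracted. The causes of the other shifts were not tested. With no repeated array, the spread between cultures is unknown.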
